A study of Cicer arietinum with 8 samples.

Results

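Leaves of chickpea (Cicer arietinum) genotype ICC 3996 that had spent 7 nights at 5 °C were compared with leaves of plants kept warm. This was 1 of 8 comparisons of stressed with control tissue in the series, chosen by its labels for treatment and tissue, and it held 3 of 24 arrays, or 6 of 48 channel files. All of the 756 probes on these arrays are described. The cold-night leaves came from plants given days at 15 to 25 °C and nights of 12 h at 5 °C, and were collected after night 7. The control leaves came from plants kept at 15 to 25 °C throughout and were collected at the same time. Both groups were grown in a glasshouse, 5 plants each with 1 plant per 15 cm pot, in moist sterile potting mix with fertiliser, and both were sampled 2 weeks after flowering. RNA was extracted from pooled leaf tissue, so the arrays compare pools and not single plants. ICC 3996 is an accession known for resistance to ascochyta blight, and a single genotype was studied, so the values hold for that genotype.

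Chickpea is a cool-season legume that is sensitive to cold nights at flowering, when flowers and young pods are often lost. In plants generally, and best known from Arabidopsis, leaves respond to low temperature through CBF/DREB transcription factors. These switch on genes for dehydrins and other protective proteins, while sugars and proline build up and membrane lipids become less saturated. Photosynthesis usually slows, and enzymes that remove reactive oxygen are often induced.

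Stressed and control RNA were labelled with the dyes Cy5 and Cy3 and hybridised together to spotted cDNA arrays, so that each array gives its own ratio of cold-night over control leaves. Each probe had 6 spots. The probes carry codes only, and no file used here pairs a code with a gene. By prefix there were 442 U, 117 CA, 156 LS and 41 LC codes. Sequences of grass pea and lentil are known to be on this array beside those of chickpea, but which prefix belongs to which species is not given. For that reason no gene is named below, leaf markers could not be looked up, and the pathways given as background could not be followed. In whole leaves, fewer cells of a type and less RNA per cell cannot be told apart.

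Cold-night RNA was in Cy5 on arrays 1 and 2 and in Cy3 on array 3. Array 2 was the brightest, with a median spot signal of 4132 in cold-night and 5165 in control leaves, and arrays 1 and 3 had medians of 1202 and 1944 in cold-night leaves against 1531 and 1350 in control leaves. Spots unflagged in both channels numbered 2135, 2670 and 1744 of 4536 on arrays 1, 2 and 3. Probes above background in cold-night RNA numbered 408, 523 and 414, and in control RNA 459, 553 and 386, so the channel in Cy3 held more on every array. A ratio could be formed on all 3 arrays for 308 probes, on 2 arrays for 121, on 1 array for 88 and on none for 239. For 8 of the 429 probes with at least 2 ratios, the cold effect and the dye effect could not be separated, which left 421 probes tested. None of the 41 LC-coded probes was among them.

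Few of the measured probes passed as different between cold-night and control leaves. Of 421 probes tested, 16 passed an adjusted p of 0.05 in limma (3.80%), 12 of them higher (2.85%) and 4 lower (0.950%) in cold-night than in control leaves. Fitted rises of the called probes reached 3.37-fold (CA0897) and fitted falls 2.29-fold (U096), apart from U070. U070 had a fitted rise of 6.88-fold from 3 spots in all, which did not pass with flagged spots kept (log2 0.27). Most ratios were small, with a median size of 0.20 on the log2 scale, on which 1 stands for a 2-fold difference. Only 7 probes had fitted ratios at least 2-fold higher and 6 at least 2-fold lower. Without adjustment, 37 probes were higher and 34 lower at a p under 0.05. With the spread of the ratios set equal between arrays, the calls numbered 28, 18 higher and 10 lower. The count of calls was 3 without array 1, 6 without array 3 and 11 without array 2. Array 2 was quantified on another day than arrays 1 and 3, and with the quantification day as a block the count was 9, of which 8 were among the 16. The only other array in the fit from that day was array 1 of drought leaves. Within cold leaves the day thus cannot be told apart from the replicate. Under that block U070, U399, U284, U368, U301, CA0712, U096 and LS0381 did not pass, at adjusted p-values from 0.0564 (U096) to 0.111 (U070 and U301). The count was 0 when the cold leaf arrays were fitted alone and without a dye term, with a smallest adjusted p of 0.196.

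**Figure D1:**
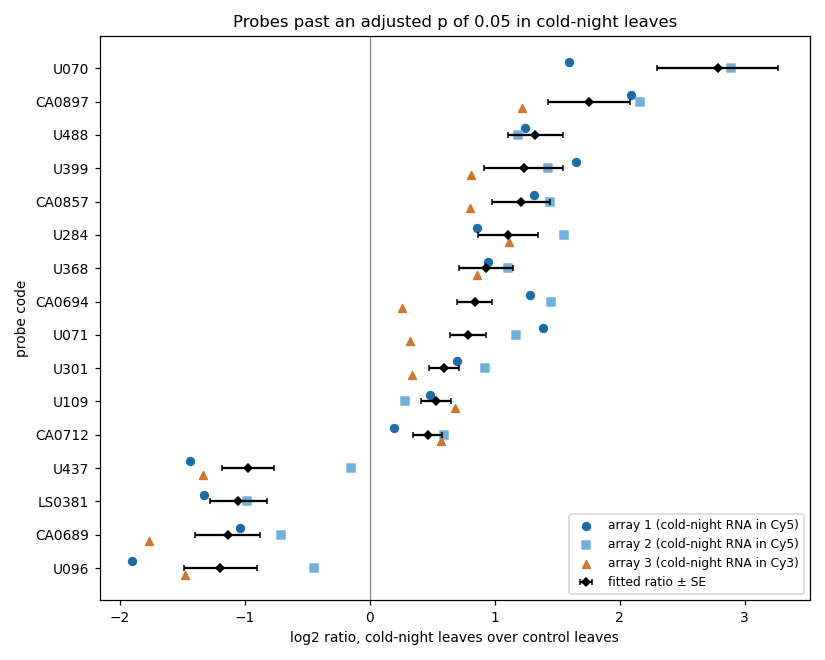
Log2 ratio of cold-night over control leaves for the 16 probes past an adjusted p of 0.05, with a symbol for each of the 3 arrays and the fitted ratio with its SE in black. The 13 probes measured on all 3 arrays lie on the same side of 0 on each, and U070, U488 and LS0381 have no ratio on array 3.

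CA0897 gave the clearest large rise. Its normalised brightness on arrays 1, 2 and 3 was 7043, 24982 and 5754 in cold-night leaves, against 1653, 5593 and 2472 in control leaves. Cold-night leaves were brighter on every array, and the log2 ratios were 2.09, 2.16 and 1.22. The fitted rise was 3.37-fold (log2 1.75 ± 0.33 SE, adjusted p = 0.0112), and it stayed past the threshold in 18 of 20 other settings. Without array 1 its adjusted p was 0.0692. Array 3, with the dyes swapped, gave the smallest ratio and also the widest scatter over spots (SD 0.65, against 0.11 and 0.15 on arrays 1 and 2).

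U399, CA0857 and U284 rose by more than 2-fold as well. U399 had a brightness of 9555, 38570 and 4306 in cold-night leaves, against 3043, 14329 and 2457 in control leaves. Its log2 ratios were 1.65, 1.43 and 0.81, and the fitted rise was 2.35-fold (log2 1.23 ± 0.31 SE, adjusted p = 0.0427). CA0857 had 3264, 13935 and 2761 in cold-night leaves, against 1311, 5134 and 1582 in control leaves, a fitted rise of 2.32-fold (log2 1.21 ± 0.23 SE, adjusted p = 0.0136). Its ratios of 1.32 and 1.44 on arrays 1 and 2 rested on 6 spots each, and the 0.80 on array 3 on only 2 spots. U284 was bright in both groups, at 12784, 44308 and 12672 in cold-night leaves against 7038, 15077 and 5869 in control leaves. Its log2 ratios were 0.86, 1.56 and 1.11, so the swapped array lay between the others (fitted rise 2.15-fold, log2 1.11 ± 0.24 SE, adjusted p = 0.0209). Leaving out array 1, 2 or 3 gave adjusted p-values of 0.168, 0.101 and 0.124 for U399. CA0857 had 0.0712 without array 1 and 0.0689 without array 2, and U284 had 0.0933 without array 2 and 0.165 without array 3.

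U368, CA0694 and U071 rose by less than 2-fold. U368 had the lowest SD over arrays of the called rises with 3 ratios, 0.13, from log2 ratios of 0.94, 1.11 and 0.86 on arrays 1, 2 and 3. Its brightness was 11612, 29437 and 4502 in cold-night leaves against 6043, 13638 and 2480 in control leaves, and the fitted rise was 1.91-fold (log2 0.93 ± 0.22 SE, adjusted p = 0.0427). CA0694 and U071 had, with U488, the smallest adjusted p of the cold leaf tests, 0.00845 each. Both rose strongly where cold-night RNA was in Cy5 and little where it was in Cy3. CA0694 had ratios of 1.28 and 1.45 on arrays 1 and 2 and 0.25 on array 3. U071 had 1.38 and 1.17 on arrays 1 and 2 and 0.32 on array 3. The model assigned part of this to the dye (0.46 for CA0694 and 0.51 for U071, as a log2 ratio of Cy5 over Cy3) and left fitted rises of 1.79-fold (log2 0.84 ± 0.14 SE) and 1.72-fold (log2 0.79 ± 0.14 SE). Without a dye term neither passed. Without array 1, 2 or 3, U368 had adjusted p-values of 0.128, 0.114 and 0.249, and U071 had 0.0629 without array 1 and 0.0623 without array 3.

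U301, U109 and CA0712 were the smallest rises that passed, and each was higher on 3 of 3 arrays. U301 had log2 ratios of 0.70, 0.92 and 0.34 (fitted 1.51-fold, log2 0.59 ± 0.12 SE, adjusted p = 0.0209). U109 had 0.48, 0.28 and 0.68 (fitted 1.44-fold, log2 0.53 ± 0.12 SE, adjusted p = 0.0209). CA0712 had 0.19, 0.59 and 0.57 (fitted 1.38-fold, log2 0.47 ± 0.12 SE, adjusted p = 0.0427). These probes were measured on 4 to 6 spots of every array, so their small ratios rest on most of the spots. CA0712 passed in 7 of 20 other settings, U301 in 13 and U109 in 16. U301 and CA0712 lost their calls without any 1 of the arrays, at adjusted p-values from 0.0712 to 0.0955 and from 0.0629 to 0.245, and U109 lost its call without array 1 (0.128) or array 3 (0.122).

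A pair of called rises had no ratio on the swapped array. U488 had a brightness of 2489 and 4038 in cold-night leaves on arrays 1 and 2, against 1054 and 1778 in control leaves, with log2 ratios of 1.24 and 1.18. Its fitted rise was 2.51-fold (log2 1.33 ± 0.22 SE, adjusted p = 0.00845), and it passed in 14 of 15 other settings. It could not be tested with at least 3 unflagged spots, with values on all 3 arrays, with a dye term of its own, or without array 1 or 2. On array 3, where all its spots were flagged in a channel, the signal was 2.01 times background in cold-night leaves and 1.35 times in control leaves, and the ratio with flagged spots kept was 1.32.

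U070 had the largest fitted ratio and rested on the fewest spots. Its log2 ratio was 1.59 from 1 spot on array 1 and 2.89 from 2 spots on array 2, and the fit gave 2.78 ± 0.48 SE (6.88-fold, adjusted p = 0.0427). The fit lies above the mean of the arrays, 2.24, because a dye coefficient of -0.54, estimated from the other conditions, was taken off. Signal over background for cold-night leaves was 5.40 and 7.77 on arrays 1 and 2, against 1.97 and 1.74 for control leaves. On array 3 the order was the reverse, 0.92 in cold-night leaves against 2.39 in control leaves. The Cy5 channel was thus the brighter on all 3 arrays. With flagged spots kept, the ratios were 1.92, 2.48 and -3.11 and the fitted value fell to 0.27, no longer past the threshold. Leaving out array 3 kept the fitted value at 2.78 but changed the probes over which p is adjusted, and the adjusted p was 0.0623.

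The falls were fewer. U096 had a brightness of 4436, 14072 and 2972 in cold-night leaves on arrays 1, 2 and 3, against 16611, 19198 and 8298 in control leaves. It was lower on every array, by -1.90, -0.45 and -1.48 on the log2 scale, and the fitted fall was 2.29-fold (log2 -1.20 ± 0.29 SE, adjusted p = 0.0427). CA0689 had 4298, 14570 and 2821 in cold-night leaves, against 8812, 23879 and 9614 in control leaves. Its ratios were -1.04, -0.71 and -1.77, with at least 5 unflagged spots on each array, and the fitted fall was 2.20-fold (log2 -1.14 ± 0.26 SE, adjusted p = 0.0209). The swapped array gave the largest fall of CA0689, and all 3 arrays had the same sign. Both lost their calls without array 1 (adjusted p = 0.202 for U096 and 0.0692 for CA0689) and without array 3 (0.407 and 0.333).

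U437 and LS0381 fell too. U437 had a brightness of 2262, 46721 and 8024 in cold-night leaves, against 6142, 51998 and 20204 in control leaves. Its log2 ratios were -1.44, -0.15 and -1.33 (fitted 1.97-fold lower, log2 -0.97 ± 0.21 SE, adjusted p = 0.0209). The small ratio was on array 2, where its raw signals of 49685 in cold-night and 55376 in control leaves were the highest of the 3 arrays. LS0381 had 1128 and 2337 in cold-night leaves on arrays 1 and 2, against 2834 and 4613 in control leaves. Its ratios were -1.33 and -0.98, with none on array 3 (fitted 2.07-fold lower, log2 -1.05 ± 0.22 SE, adjusted p = 0.0427). It passed in 6 of 16 other settings. It could not be tested with values on all 3 arrays, with a dye term of its own, or without array 1 or 2. Leaving out array 3 kept its fitted value at -1.05 but changed the probes over which p is adjusted, and it did not pass (adjusted p = 0.0639). U437 passed in 15 of 20. Its adjusted p was 0.137 without array 1 and 0.245 without array 3. The fitted value was -0.74 both without array 1 and with at least 3 unflagged spots required. In the latter setting the adjusted p was 0.106.

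Some large ratios of the same sign on all 3 arrays did not pass. The 10 largest such ratios above 0 held 6 called probes, all of codes in U and CA, and the 4 others were U298, CA0849, U059 and U025. U298 had log2 ratios of 0.79, 0.86 and 1.17 (fitted 0.98 ± 0.27 SE, adjusted p = 0.0546). U025 had 0.31, 1.31 and 0.75, the last from 1 spot (fitted 0.83, adjusted p = 0.0520). CA0849 was among the brightest probes, with raw signals of 50201, 54389 and 24742 in cold-night leaves against 17894, 46728 and 8490 in control leaves. Its ratios were 1.34, 0.30 and 1.44 (fitted 0.96, adjusted p = 0.149), the smallest being on array 2, where it was brightest. U059 followed the same pattern, with 0.67, 0.27 and 1.69 (fitted 0.95, adjusted p = 0.185).

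On the side below 0, the 10 largest such ratios held 3 called probes, and 5 of the 10 had codes in LS. The fitted values of those 5 were -1.14 for LS0551 (adjusted p = 0.0621), -1.004 for LS0109, -0.92 for LS0951, -0.83 for LS0125 and -0.74 for LS0093. On array 1 LS0551, LS0109, LS0951 and LS0125 had ratios of -2.45, -2.42, -1.98 and -2.37. Their ratios on array 3 were -0.47, -0.30, -0.19 and -0.19. The other members were CA0761, with ratios of -1.57, -0.50 and -1.03 (fitted -1.10, adjusted p = 0.0946), and CA0615, with -0.95, -0.45 and -0.87 (fitted -0.82, adjusted p = 0.0652). Large ratios on array 1 that shrank on array 3 were thus a feature of 4 of the LS-coded members.

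The arrays agreed only in part. Across probes, which are not independent replicates, the log2 ratios of arrays 1 and 2 correlated with r = 0.49 (392 probes). Either of them correlated with the swapped array at 0.13 (312 probes) and 0.16 (341 probes). Arrays 1 and 2 share the dye orientation, and arrays 1 and 3 the day of quantification. Only array 3 was swapped, so dye orientation and replicate cannot be told apart. Ratios of array 1 also followed the dye coefficient of the probes, estimated over all conditions (r = 0.57), more closely than those of array 2 (0.20) or array 3 (-0.28). These arrays entered the estimate of that coefficient. Spots of a probe within an array agreed far better than arrays did, with a median SD of 0.11 over spots and 0.33 over the 3 arrays. Of 308 probes with 3 ratios, 47 were higher and 75 lower on all of them, together 39.6%. In the other conditions that share ran from 31.7% to 66.1%.

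**Figure D2:**
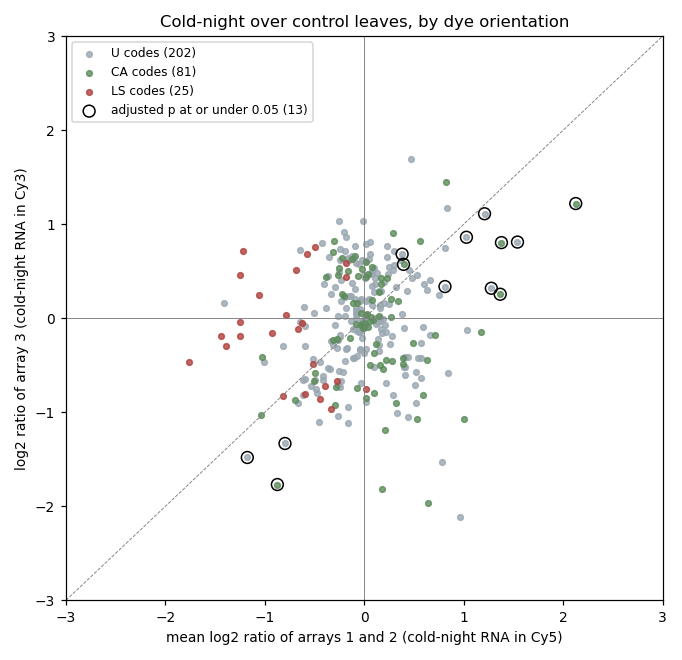
Log2 ratio of cold-night over control leaves on array 3, where cold-night RNA was in Cy3, against the mean of arrays 1 and 2, where it was in Cy5, for the 308 probes with 3 ratios. The 13 circled probes passed an adjusted p of 0.05 and lie in the quadrants of equal sign, while many others, LS-coded ones among them, change sign between orientations.

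LS-coded probes as a class had ratios below 0. Of 43 tested, 35 (81.4%) were below 0, against 48.7% of all 421 probes, and their median log2 ratio was -0.39, against 0.04 for 283 U-coded probes, 0.03 for 95 CA-coded probes and 0.01 over all 421. In limma 1 of the 43 was called lower and 0 higher, beside 4 of 421 called lower (0.950%) and 12 called higher (2.85%) over all probes. At an unadjusted p under 0.05, 10 of the 43 were lower and 0 higher, beside 34 lower and 37 higher of all 421. The LS medians were -0.38, -0.37 and -0.18 on arrays 1, 2 and 3, over 42, 42 and 27 probes, so that of array 3 covers fewer probes. LS-coded probes were the dimmer ones, with a median log2 brightness of 11.03 against 12.93 for U and 12.97 for CA. With all tested probes split into 3 equal classes of brightness, the LS median in the dimmest class was -0.35 (33 probes), against 0.05 for U and 0.04 for CA. In the middle class it was -0.50 (8 probes) and in the brightest -0.37 (2 probes). LS-coded probes were printed in subgrid columns 3 and 4, where their medians were -0.40 and -0.33, against 0.09 and 0.06 for U and 0.04 and 0.03 for CA in the same columns. With flagged spots kept, which brings in all 156 LS-coded probes, the median was -0.07 and 95 were below 0. The share below 0 over all 756 probes in that setting is not given here. In cold flowers the LS median was -0.19 (47 probes). It was -0.42 (46 probes) and -0.33 (45 probes) on arrays 1 and 2. On the swapped array, where dye and replicate cannot be told apart, it was 0.24 (26 probes). The LS median was -0.18 in salt roots at 48 h (13 probes). In the drought conditions and salt shoots it ran from -0.034 (salt shoots at 48 h) to -0.005 (drought flowers).

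**Figure D3:**
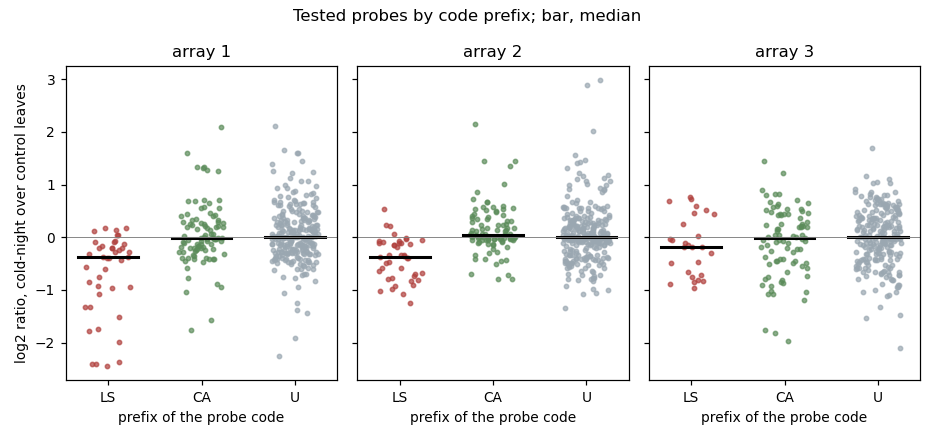
Log2 ratios of cold-night over control leaves for tested probes on each of the 3 arrays, by the prefix of the probe code, with the median of each class as a bar. The LS medians of -0.38, -0.37 and -0.18, over 42, 42 and 27 probes, lie below those of CA and U on each array.

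Probes present in only 1 of the RNAs may give no ratio if their spots are flagged, so they were looked for among all 756 probes. Above background on all 3 arrays were 348 probes in cold-night RNA and 347 in control RNA, 323 of them in both, and 186 were above background in neither RNA on any array. No probe was above background in cold-night RNA on all 3 arrays and in control RNA on none, and none showed the reverse. On 2 arrays, 11 probes were above background in control RNA and on none in cold-night RNA, and 0 showed the reverse. For 10 of the 11 these were arrays 1 and 2, where control RNA carried Cy3, the dye with more probes above background. When array 3 was left out the count of control-only probes was 18, and without array 2 it was 2, CA0697 and U026. The part of the dye in these counts was not tested.

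The same cold treatment was also followed in flowers with early pods of ICC 3996, collected after the same night, which allows the leaf response to be set against another organ. In flowers, 0 of 428 probes (0%) passed an adjusted p of 0.05 in limma, with 25 higher and 26 lower at an unadjusted p under 0.05. The difference between leaf and flower responses passed at 0 of 388 probes (0%), with a smallest adjusted p of 0.934 and 17 at an unadjusted p under 0.05. Of the 16 leaf calls, 15 were tested in flowers, and their fitted ratios had the same sign there in 15 of 15. Over all 387 probes tested in both tissues the share was 70.8%. The ratio was smaller in flowers for all 15, an order that choosing the probes on their leaf values favours. Leaf and flower arrays have the same dye layout and share the fitted dye term, so a dye error of a probe enters both. The labels do not say whether leaves and flowers came from the same plants.

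Among the called probes, U070 had a fitted log2 ratio of 2.44 in cold flowers, CA0857 0.99, U399 0.79, U071 0.66 and U301 0.59. CA0857 was higher in cold flowers on all 3 arrays, at 1.01, 0.75 and 1.14, against 1.32, 1.44 and 0.80 in leaves, so its ranges in both tissues overlapped. U301 had 0.83, 0.57 and 0.53 in flowers, and its leaf and flower fits differed by 0.01 ± 0.17 SE. For CA0897 the tissues stood apart, with 2.09, 2.16 and 1.22 in leaves and 0.54, 0.41 and 0.13 in flowers. Its difference of 1.46 ± 0.46 SE did not pass (adjusted p = 0.934, unadjusted p = 0.00665). It passed with only the drought and cold arrays in the fit (adjusted p = 0.0155). U284 had 0.09, 0.41 and 0.29 in flowers, with no overlap with its leaf ratios (difference 0.91 ± 0.34 SE, adjusted p = 0.934). U488 had 0.39, -0.00025 and 0.98 in flowers. Its difference of 0.83 ± 0.27 SE passed only with loess by subgrid (adjusted p = 0.0478), in which the value was 1.09. Among the falls, U437 and CA0689 had fitted ratios of -0.56 each in flowers and U096 had -0.67.

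**Figure D4:**
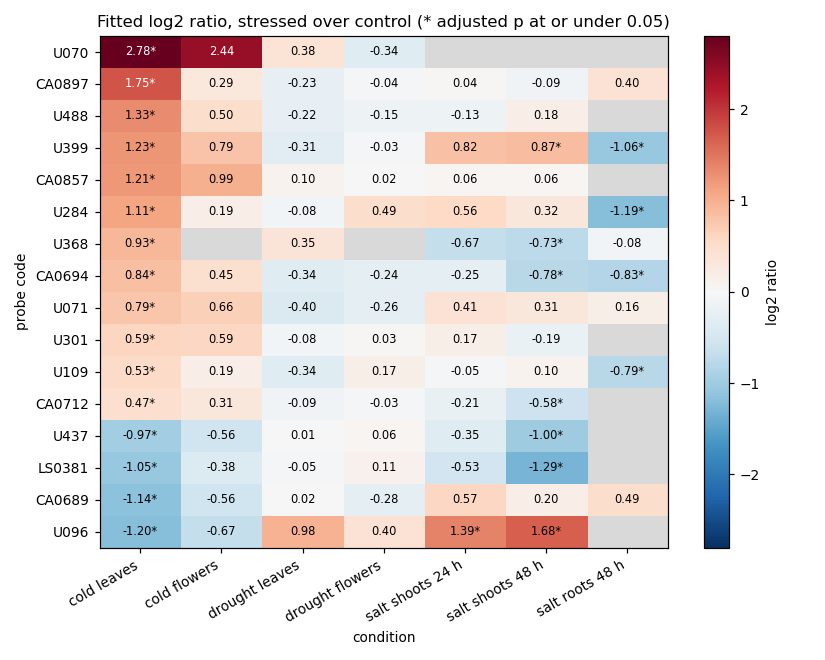
Fitted log2 ratio of stressed over control tissue for the 16 probes called in cold leaves, in each of 7 conditions, with an asterisk at an adjusted p of 0.05 or less and grey where a probe was not tested. Cold leaves and cold flowers have the same sign in all 15 rows with both values, while drought and salt have mixed signs.

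Drought was given to plants of the same genotype and stage, and its leaves serve as the comparison for a different stress in the same organ. Droughted plants were sampled when pots had dried to 30% water content, against 80% in their controls. In drought leaves, 0 of 441 probes (0%) passed in limma, with 38 higher and 40 lower at an unadjusted p under 0.05. Of the 16 probes called in cold leaves, 4 had the same sign in drought leaves, against 45.2% of the 403 probes tested in both. The difference between cold and drought responses passed at 15 of 403 probes (3.72%), 9 of them with the higher response in cold (2.23%) and 6 with the lower (1.49%). At an unadjusted p under 0.05 there were 93. All 15 had fitted ratios of opposite sign in cold and drought leaves, which choosing on the difference favours. Of them 6 were also called in cold leaves alone, 37.5% of the 16 cold leaf calls and 40% of the 15 differences. The count was 57 with the spread of ratios set equal between arrays, 5 with flagged spots kept and 3 without the dye term. It was 0 with cold and drought leaves fitted alone, a fit that also had no dye term. Leaving out array 3 of cold leaves gave 5, and leaving out array 2 or 3 of drought leaves gave 9 or 2.

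Among the probes with the lower response in cold, U096 stood out. Its log2 ratios were -1.90, -0.45 and -1.48 in cold leaves and 0.30, 0.54 and 1.84 in drought leaves, with no overlap, and the difference was -2.17 ± 0.41 SE (adjusted p = 0.0123). LS0551 had -2.45, -1.07 and -0.47 in cold leaves and 0.10 and 1.62 on the drought arrays with a value, a difference of -2.003 ± 0.46 SE (adjusted p = 0.0426). LS0951 had -1.98, -0.90 and -0.19 in cold leaves and 0.71, 0.23 and 0.65 in drought leaves (difference -1.56 ± 0.35 SE, adjusted p = 0.0425). Neither LS-coded probe was called in cold leaves alone. U042 and U205 had small fitted ratios in each stress but of opposite sign. On single arrays U042 had -0.31 and -0.47 in cold leaves and 0.52, 0.56 and 0.66 in drought leaves, and the difference was -0.95 ± 0.17 SE (adjusted p = 0.00898). U205 differed by -0.83 ± 0.21 SE (adjusted p = 0.0425), with fits of -0.33 in cold and 0.50 in drought leaves. Its ratios on single arrays were not separate between cold and drought leaves. U096 kept its call in 20 of 23 other settings. Without array 3 of cold leaves its adjusted p was 0.0674 and without array 3 of drought leaves it was 0.0788. LS0551 did not pass without array 1 (0.0500) or array 3 (0.109) of cold leaves, and U042 did not without array 3 of drought leaves (0.0587). LS0951 and U205 each lost the call in several such fits, with the highest adjusted p at 0.0906 for LS0951 without array 2 and 0.167 for U205 without array 3 of drought leaves.

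CA0897 led the probes with the higher response in cold, with log2 ratios of 2.09, 2.16 and 1.22 in cold leaves and 0.24, 0.24 and -0.95 in drought leaves (difference 1.98 ± 0.46 SE, adjusted p = 0.0419). U488 had 1.24 and 1.18 in cold leaves and 0.06, -0.36 and -0.47 in drought leaves (difference 1.55 ± 0.27 SE, adjusted p = 0.00898). These ranges did not overlap. U071 differed by 1.19 ± 0.20 SE (adjusted p = 0.00898) and CA0694 by 1.18 ± 0.22 SE (adjusted p = 0.0114). For CA0694 the ranges met, since its lowest cold ratio of 0.25 lay under its highest drought ratio of 0.33, and U071 was alike with 0.32 under 0.35. In both, the highest drought ratio and the lowest cold ratio came from arrays of opposite dye orientation. U455 had 0.74 and 0.36 in cold leaves and -0.64 and -0.52 in drought leaves, a difference of 1.13 ± 0.25 SE (adjusted p = 0.0425). U488 kept its call in 17 of 18 other settings, U071 in 19 of 23 and CA0897 in 16 of 23. Fewer settings could thus test U488. Adjusted p for CA0897 ran from 0.0500 to 0.145 without array 1, 2 or 3 of cold leaves or array 3 of drought leaves, and it did not pass in these fits.

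**Figure D5:**
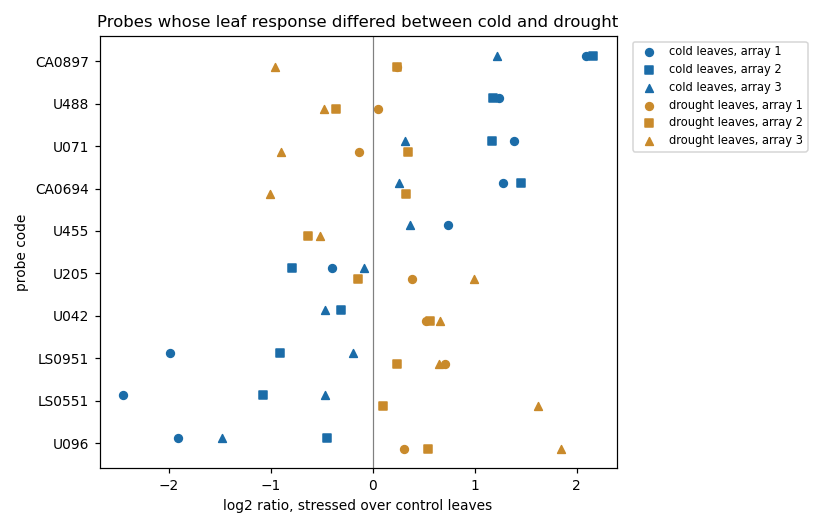
Log2 ratio of stressed over control leaves on each array of cold leaves (blue) and drought leaves (orange) for the 5 probes with the largest differences each way among the 15 that passed. Cold and drought points are separate for U096, LS0551, LS0951, U042, U455, U488 and CA0897, and they meet or cross for U205, CA0694 and U071.

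Salt stress had been given to younger plants, as 150 mM NaCl at 18 days of age, so its values for the cold leaf calls are set beside them without a test of the difference. In salt shoots at 24 h, 20 of 392 probes passed (5.10%, with 2.55% higher and 2.55% lower), in salt shoots at 48 h 132 of 414 (31.9%), and in salt roots at 48 h 100 of 244 (41.0%). U096, lower in cold leaves, was called higher in salt shoots at both times, with fitted log2 ratios of 1.39 at 24 h and 1.68 at 48 h. U399, higher in cold leaves, was called higher in salt shoots at 48 h (0.87) and lower in salt roots at 48 h (-1.06). LS0381 and U437, lower in cold leaves, were called lower in salt shoots at 48 h as well (-1.29 and -1.003). CA0694, U368 and CA0712, higher in cold leaves, were called lower in salt shoots at 48 h (-0.78, -0.73 and -0.58). CA0897, CA0857 and U488 had salt shoot ratios between -0.13 and 0.18 and passed there at neither time.

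The authors' deposited table gives a mean log2 ratio in cold leaves for 507 probes, with a median of -0.136. All 16 called probes had the same sign in the authors' deposited table, and so did 74.2% of the 419 tested probes with a value there. The authors' deposited table gives 1.79 for CA0897, 1.29 for U399 and 1.13 for U284, close to the values fitted here. Other called probes were further apart. The authors' deposited table gives -1.79 for LS0381 where the fit gave -1.05, and -1.68 for CA0689 where the fit gave -1.14. The authors' deposited table also gives 2.05 for U070 where the fit gave 2.78, 0.70 for U488 where the fit gave 1.33, and 0.21 for U109 where the fit gave 0.53. It was made from the same arrays, so it is not independent evidence.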

How the data were processed

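Each deposited intensity is the mean brightness over a spot's pixels or over its surrounding background, from ImaGene 5.5, which also set the spot flags, per the file headers. For the log2 values of the deposited table, the authors subtracted local background, dropped flagged spots, applied LOWESS and combined duplicate spots in GeneSight, per the series design. The deposited table was read as treated over control, and its centring and the shift in its logarithm are not stated. Dye and role of each channel came from the names of the channel files.

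Background was corrected with normexp (offset 50) and arrays were then normalised singly by global loess, with weight 0 for controls and flagged spots. Spots flagged in either channel were dropped, array 3 was turned to stressed over control, and spots were averaged per probe. A probe was above background where at least 50% of its spots lay more than 2 SDs of the local background over its mean. Models were fitted with limma 3.58.1 in R 4.3.3 over 21 arrays of 7 conditions, with 1 coefficient for each condition and a dye term in common. The 3 arrays of salt roots at 24 h, copies of 1 scan, were left out. Probes with values on at least 2 arrays and an estimable effect were tested, with Benjamini-Hochberg adjustment over all of them. The arrays are called biological replicates by the series design, but nothing says how the pools were made, so p-values measure the spread between arrays, which may be technical. That spread was estimated for each probe over the arrays of all 7 conditions, as if it were equal in each. An exact test on 3 arrays alone cannot go below a two-sided p of 0.25. The number of arrays limits the precision. Probes were named where they passed, where they were among the 10 largest ratios each way of the same sign on 3 arrays, or where they passed a contrast (the 5 largest each way if over 10). Members, lists and tests were chosen with earlier results of these data known. The pathway lists and leaf markers matched no code and were not tested. The code was tested on simulated data. Sequences and gene names were not used here.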

Additional observations from a re-analysis of the deposited data

Results flagged for a closer look

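In the authors' deposited table, 88 probes not tested here have a cold leaf value, and 5 of these exceed in size every fitted ratio of the tested probes, the largest of which was 2.78. Each had an unflagged ratio on array 2 only. U133 has 4.12 in the authors' deposited table, and its ratio on array 2 was 4.28 from 1 spot, with a signal of 29.9 times background in cold-night leaves against 1.83 times in control leaves. U032 has 3.02 in the authors' deposited table and 3.18 on array 2 from 6 spots (21.7 times background in cold-night leaves, 2.58 in control leaves). U471 has 3.00 in the authors' deposited table and 3.33 on array 2 from 1 spot (17.4 times background in cold-night leaves, 1.92 in control leaves). On array 1, signal over background in cold-night against control leaves was 3.36 against 1.25 for U133, 1.52 against 1.05 for U032 and 1.13 against 1.016 for U471. On array 3, with the dyes swapped, it was 1.18 against 1.03 for U133, 1.45 against 2.07 for U032 and 1.502 against 2.37 for U471, so the order of cold-night and control leaves was the reverse there for U032 and U471. U291 has -3.04 and U118 -2.79 in the authors' deposited table, while their ratios on array 2, from 1 spot each, were 0.67 and -0.11. These values have no replicate check.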

How the results depend on the processing

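No result reversed its direction under any alternative run. The 16 cold leaf calls became 28 with scaling between arrays (18 higher, 10 lower) and 9 with the quantification day as a block. They became 0 with cold leaves fitted alone and without a dye term. Leaving out a replicate gave 3 (without replicate 1) to 11 calls. Without array 1 these were CA0694, CA0863 and U284, and without array 3 all 6 were rises. The methods' t-test gave 43 probes unadjusted, 1 after adjustment (U182, adjusted p = 0.00094, whose ratios on its 2 arrays were -0.53 and -0.53) and 0 after adjustment behind the methods' 2-fold filter. That filter kept 267 of 429 probes, those whose confidence interval reached 2-fold. It therefore does not pick out ratios of at least 2-fold. The median of LS-coded probes, an alternative set chosen after seeing the data, was -0.0704 with flagged spots kept and ran from -0.36 to -0.52 with a replicate left out. The contrast with cold flowers gave 1 probe with loess by subgrid (U488) and 1 with the drought and cold arrays only (CA0897), and 0 in every left-out fit. The 15 differences from drought leaves became 57 with scaling between arrays (33 higher, 24 lower in cold), 5 with flagged spots kept, 5 with spots dropped only where both channels were flagged, 32 with probes above background on every array, 29 with at least 3 unflagged spots, 8 with values on all 3 arrays, 3 without the dye term, 49 with a dye term of its own, 9 with drought and cold arrays only and 0 with both fitted alone. Leaving out a replicate gave 2 to 19. Control-only probes numbered 1 with 75% of spots required (CA1173), and 0 to 18 with a replicate left out. The cause of these changes was not tested. Of the single probes' values, 148 fell short of the threshold and 27 came to pass it. The other 585 kept their side of it or, for values of the authors' deposited table, which have no p-value, kept their sign. Each ratio already pairs cold-night with control RNA on 1 array, so the fit used that pairing. No further pairing by array number was made, because the array number is tied to the dye orientation. Of the 756 probes 335 were not tested, 8 because dye and cold could not be separated and the others for too few arrays with an unflagged spot.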

Other observations

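Array 3 decided some values. CA0043 had log2 ratios of 1.33 and 1.01 on arrays 1 and 2 and -0.15 on array 3 (fitted 0.71 ± 0.20 SE, adjusted p = 0.0641), and without array 3 its adjusted p was 0.00179. U420 had 0.76 and 0.93 on arrays 1 and 2 and -0.58 on array 3 (fitted 0.32, adjusted p = 0.440), and without array 3 its adjusted p was 0.0187. CA0863 was the opposite case, with -0.28 on array 1 and 0.86 and 0.90 on arrays 2 and 3 (fitted 0.60 ± 0.17 SE, adjusted p = 0.0595), and without array 1 its adjusted p was 0.0324. Its signal over background on array 1 was 19.0 in cold-night leaves against 15.2 in control leaves. U460 had the widest spread of these probes, with -1.06, 2.98 and -2.11 on arrays 1, 2 and 3, and its fitted value was -0.24 (adjusted p = 0.906). These 4 probes were chosen after their values were seen.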
